A study of Homo sapiens with 8 samples.

Results

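The clustered protocadherin locus was described as 740 tiles of 1 kb between 140.16 and 140.9 Mb of hg19 chromosome 5, out of 3095669 such tiles in the genome. Its borders were set by position, with no measured value used. Within it, alpha was taken as 140.16 to 140.4 Mb (240 tiles), beta as 140.43 to 140.63 Mb (200 tiles) and gamma as 140.71 to 140.9 Mb (190 tiles), and 500 kb on either side served as flanks. H3K9me3, a histone mark of heterochromatin, had been profiled by ChIP-seq in PC9, an established line of human lung adenocarcinoma with an activating EGFR mutation. Parental cells were untreated. DTP (drug-tolerant persister) cells had survived 8 days in 1 uM erlotinib, an inhibitor of the EGFR kinase. DTP + TSA cells were DTP cells given 50 nM trichostatin A (TSA), an inhibitor of histone deacetylases, for 5 hours on the last of those days. Each state had 1 H3K9me3 library with a list of enriched intervals, so differences between states stand without replicates and were not tested. The other 5 samples of the series, 2 H3K4me3 and 3 input libraries, were not analysed here. All cells came from 1 cell line, and the DTP libraries sampled only the cells that outlived the drug.

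The locus holds 3 tandem gene families that encode cadherin-like adhesion proteins of the cell surface. In alpha and gamma each variable exon has its own promoter and is spliced to constant exons shared by its family, whereas beta genes are single exons. Neurons choose a few of these promoters per cell, which gives each neuron its own adhesion code. The promoters carry a conserved element built around the letters CGCT, and CTCF, the factor that anchors chromatin loops, binds at most of them. In several carcinomas the cluster is known as a region silenced over a long range. A table of RefSeq genes (GRCh38.p14) matched all 53 symbols of the families, 15 in alpha, 16 in beta and 22 in gamma. SLC25A2, a mitochondrial ornithine carrier, and TAF7, a subunit of the general transcription factor TFIID, are the 2 other protein-coding genes that lie among them. No hg19 gene positions were used here, so no interval was assigned to a gene.

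The promoters of the families are shown because the H3K9me3 intervals described below recur along the locus with a spacing of several kb, as do the genes. RefSeq promoters of GRCh38.p14, each running from 250 bases before to 50 bases after a gene's start, were at hand for 47 of the 53 genes, and all of those 47 genes lie on the plus strand. The letters CGCTG, searched on both strands, were present in 41 of the 47 (87.2%) and in 51.7% of the promoters of all 27305 genes in the table. On the strand of the gene, CGCTG within the last 100 bases before the start was found in 38 of 47 (80.9%), against 15.6% of all genes. By family these were 8 of 13 alpha genes, 11 of 14 beta genes and 19 of 20 gamma genes. The 10 letters carried by most promoters of a family were ATGATGTCGC in alpha (8 of 13, and 11 of all 27305 genes), GGTGGCGCTG in beta (12 of 14, and 93 of all) and GCGCCGCTGT in gamma (9 of 20, and 45 of all). Each overlaps CGCTG or its first letters, and each was picked as the most frequent in these same promoters. The pieces below are 40 bases long, from the first 5 genes of each family with a match, 5′ to 3′ on the plus strand, with CGCTG in capitals.

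PCDHA1: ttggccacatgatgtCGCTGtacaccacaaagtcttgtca
PCDHA2: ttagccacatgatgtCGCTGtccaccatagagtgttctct
PCDHA5: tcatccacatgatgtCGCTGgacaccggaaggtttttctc
PCDHA6: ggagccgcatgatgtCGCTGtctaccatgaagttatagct
PCDHA8: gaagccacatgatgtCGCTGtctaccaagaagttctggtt
PCDHB2: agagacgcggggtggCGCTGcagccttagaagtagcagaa
PCDHB3: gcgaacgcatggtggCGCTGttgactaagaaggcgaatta
PCDHB4: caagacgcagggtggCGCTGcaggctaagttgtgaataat
PCDHB5: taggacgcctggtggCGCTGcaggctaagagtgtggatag
PCDHB7: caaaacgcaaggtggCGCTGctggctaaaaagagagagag
PCDHGA1: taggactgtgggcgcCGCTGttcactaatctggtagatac
PCDHGA2: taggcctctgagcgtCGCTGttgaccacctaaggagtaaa
PCDHGA3: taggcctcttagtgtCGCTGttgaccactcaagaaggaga
PCDHGB1: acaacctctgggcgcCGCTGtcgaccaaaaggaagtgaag
PCDHGA4: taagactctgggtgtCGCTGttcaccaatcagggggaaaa

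Among the pieces shown for a family the bases before the capitals are close to one another, with a run of catgatgt in the 5 alpha pieces and of ggtgg in the 5 beta pieces. Matches not shown can differ. PCDHA10, PCDHAC1 and PCDHAC2 lack the alpha run, and PCDHGB3 and PCDHGB7 are unlike the gamma pieces above. These sequences come from the reference and say nothing of the mark in PC9 cells.

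H3K9me3 intervals covered about 3 in 10 bases of the locus in every library. Parental intervals, 47 in number, covered 32.2% of it (238 kb). The 66 DTP intervals covered 31.5% (233.2 kb), and the 67 intervals of DTP + TSA covered 34.6% (256.2 kb). In the flanks the share was 4.72%, 5.78% and 6.48%, in the same order, and in the genome 4.05%, 5.32% and 5.79%. The ratio of the locus to its flanks was thus 6.81 in the parental library, 5.45 with erlotinib and 5.34 with erlotinib and TSA. With the strongest 23842 intervals of each list the ratios were 6.81, 15.8 and 14.8, and with flanks of 250 kb a side they were 3.50, 4.06 and 3.93. The 2 flanks were unlike each other: the left one was covered to 9.44%, 10.7% and 9.60%, whereas the right one held no parental interval and was covered to 0.88% by DTP and 3.36% by DTP + TSA intervals. The longest interval of the left flank was chr5:140121001-140152000 in parental cells (31000 bp), chr5:139829801-139837400 in DTP and chr5:140127001-140136000 in DTP + TSA. On the right it was chr5:140925801-140928400 in DTP and chr5:141015401-141021200 in DTP + TSA.

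**Figure D1:**
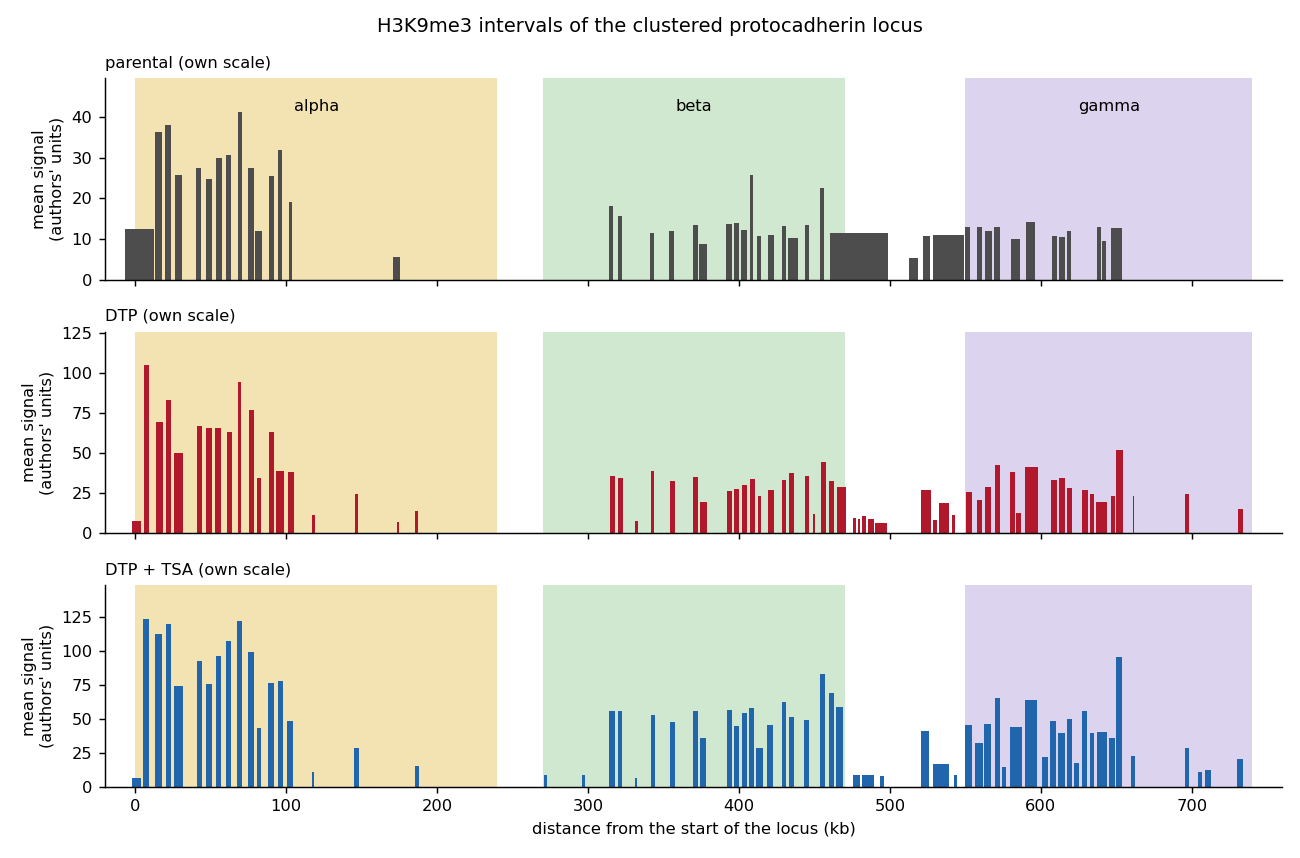
H3K9me3 intervals of each library along the locus, in kb from its start, with bar height as the authors' mean signal of the interval (each library on its own scale) and the alpha, beta and gamma borders shaded. The tallest bars lie in alpha in all 3 libraries, and the parental bars that span up to 38800 bp lie beside bars of a few kb in the other libraries.

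The number of intervals set the locus apart more than the covered length did. The genome was cut into windows of 740 kb, of which 3861 held an interval in at least 1 library, those that overlap the locus included. By intervals with their midpoint inside, 1 window exceeded the parental value of the locus, 4 the DTP value and 2 the DTP + TSA value, and the median window held 5, 11 and 12 intervals. By covered share, 36, 38 and 66 windows exceeded it.

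The covered share of the whole locus moved little between states. It was lower by 0.65 percentage points in DTP than in parental cells (a difference of -0.65), higher by 3.11 points in DTP + TSA than in DTP, and higher by 2.46 points in DTP + TSA than in parental cells. The median 740-kb window differed by 1.51, -0.35 and 1.27 points in those 3 comparisons, and 15.2%, 89.4% and 68.7% of windows lay below the locus. The direction of the first difference turned to 1.22 points when intervals within 5 kb were joined. That of the third turned to -1.89 points with the 23842 strongest intervals of each library and to -0.24 points with the intervals at or above each library's median signal.

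The small sum hid opposite differences along the locus. Parental intervals covered 25.7% of gamma (48.8 kb), DTP intervals 35.8% (68 kb) and DTP + TSA intervals 47.2% (89.6 kb). In the 80 kb between beta and gamma the order was the opposite, with 75.0% (60 kb), 48.5% (38.8 kb) and 42.5% (34 kb). Alpha stood at 26.6%, 26.8% and 26.6%, and beta at 32.7%, 31.0% and 34.4%. The 30 kb between alpha and beta held no interval in any library.

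**Figure D2:**
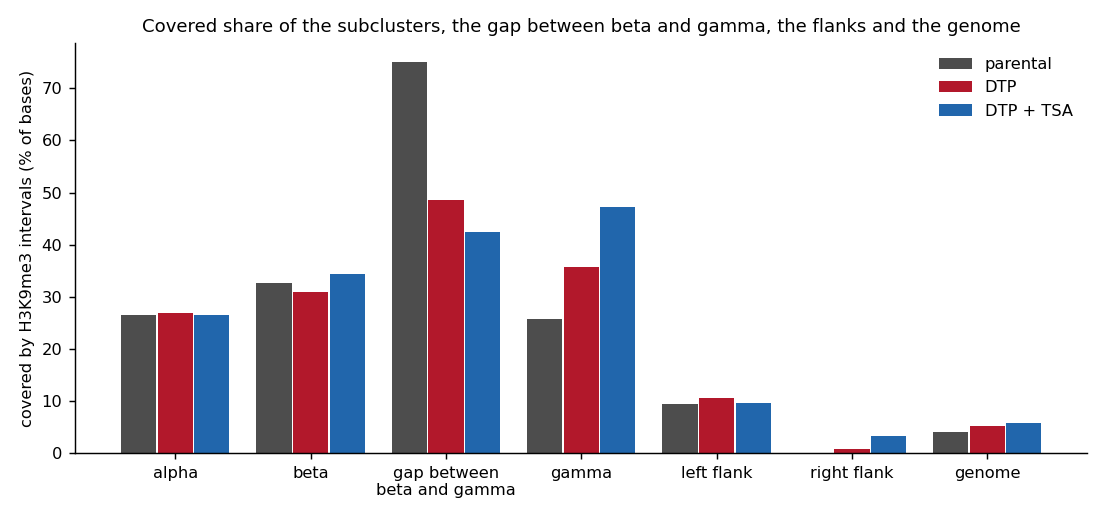
Share of bases covered by H3K9me3 intervals, in percent, for alpha, beta, the gap between beta and gamma, gamma, the 2 flanks and the genome, with 1 bar for each library. Gamma stands at 25.7%, 35.8% and 47.2%, from the parental to the DTP + TSA library, and the gap at 75.0%, 48.5% and 42.5%.

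Windows of the same length give the scale of these differences. The gamma gain of 10.1 points in DTP was exceeded by 532 of 14268 windows of 190 kb (3.73%), and the gain of 21.5 points from parental cells to DTP + TSA by 312 of them (2.19%). At the same ratio a densely covered window gains more points than a sparse one. As a ratio, the DTP share of gamma was 1.39 times the parental share, near the 1.32 times of the genome. The DTP + TSA share was 1.84 times the parental share, against 1.43 times in the genome. The difference of -26.5 points in the gap from parental cells to DTP had 327 of 28408 windows of 80 kb below it (1.15%). That share says little, since a window can lose no more than its parental coverage. Parental intervals covered 75.0% of the gap but 4.05% of the genome. The zinc-finger band 19p12, covered to 90.2% in parental cells, differed by -34.6 points in DTP. In alpha the difference of 0.25 points between DTP and parental cells was exceeded by 69.2% of windows of 240 kb, and in beta that of -1.7 points by 85.6% of windows of 200 kb. The gap difference between DTP and parental cells ranged from -50.5 points with the 23842 strongest intervals of each library to -16 points when 10 kb was left off each end of the gap. The gamma difference kept its sign under each of the 5 alternatives tried and ranged from 6.10 to 10.8 points between DTP and parental cells. The alpha and beta differences were all of 3.4 points or less in size, and 4 of these 6 changed sign under at least 1 alternative. The alpha difference from parental cells to DTP + TSA was 0 and so had no sign to change.

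A tile was called covered when intervals held at least 50% of it. From parental cells to DTP, 50 of the 740 tiles were gained (6.76%), against 3.28% of all tiles in the genome, and 53 were lost (7.16%), against 2.01%. From DTP to DTP + TSA, 43 were gained (5.81%, against 2.11%) and 27 lost (3.65%, against 1.65%). From parental cells to DTP + TSA, 67 were gained (9.05%, against 3.8%) and 54 lost (7.30%, against 2.07%). These genome shares are over all tiles, most of which no library covered, so that a densely marked region has more tiles to lose.

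Gains and losses fell in different places. Gamma held 22 of the 50 tiles gained in DTP (11.6% of its tiles, against 3.28% in the genome). It held 3 of the 53 lost (1.58%, against 2.01%) and 24 of the 43 gained with TSA (12.6%, against 2.11%). The gaps between the families held 26 of the 53 tiles lost in DTP (23.6% of their tiles) and 2 of the 50 gained (1.82%). The gap between beta and gamma was covered to 75.0% in parental cells, more than any family, and so had a larger share of tiles to lose. In alpha 18 tiles were gained (7.5%) and 13 lost (5.42%) in DTP, and in beta 8 were gained (4%) and 11 lost (5.5%). The share gained in beta was near that of the genome.

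Tiles that were covered tended to be covered in all states. Of 319 tiles covered in any library, 172 (53.9%) were covered in all 3, against 18.5% of such tiles in the genome. Of the parental tiles, 77.8% were still covered in DTP, against 66.7% in the flanks and 50.3% in the genome. Of the DTP tiles, 88.6% were still covered in DTP + TSA, against 80.7% and 69.0%.

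Overlap of whole intervals gave the same picture. At an overlap of at least 1 bp, 46 of 47 parental intervals were found in DTP (97.9%, exact 95% interval 88.7 to 99.9%), against 64.1% of all parental intervals. In DTP + TSA 45 of the 47 were found (95.7%, against 62.4%). Of the 66 DTP intervals, 64 were found in DTP + TSA (97.0%, against 71.6%) and 56 in parental cells (84.8%, against 34.2%). Of the 67 DTP + TSA intervals, 60 were found in DTP (89.6%, against 66.3%) and 51 in parental cells (76.1%, against 30.5%). The binomial interval covers counting error only, and longer intervals overlap others more readily.

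Overlapping intervals of the 3 libraries were merged into 63 segments, of which 44 were held by all 3 libraries and 38 consisted of 1 interval in each. A segment was placed in the family that held its midpoint. All 3 libraries held 14 of 18 alpha segments, 16 of 20 beta segments, 11 of 21 gamma segments and 3 of 4 in the gap between beta and gamma. A further 9 segments were held by DTP and DTP + TSA, 7 by DTP + TSA alone, 1 by parental cells and DTP, 1 by parental cells alone and 1 by DTP alone. Segments were built in the locus only, so these counts have no genome share beside them. The nearest measure is the tiles covered in any library, of which 53.9% in the locus and 18.5% in the genome were covered in all 3.

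**Figure D3:**
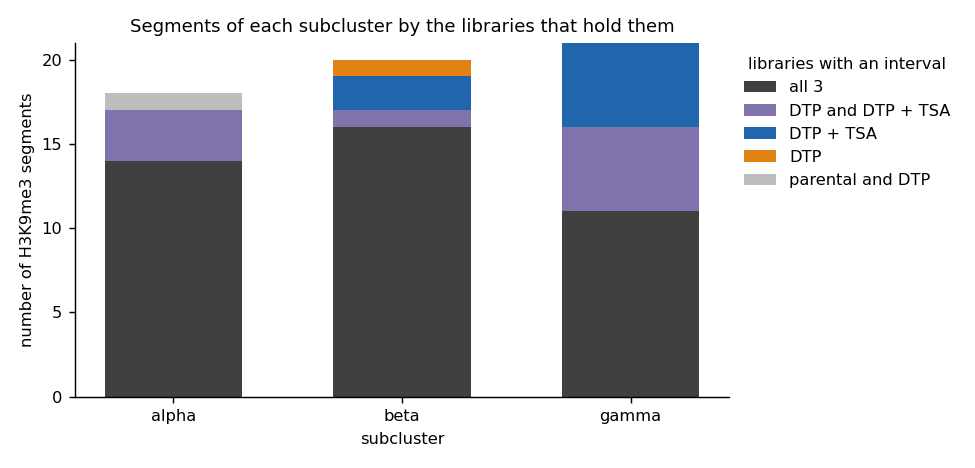
Number of merged H3K9me3 segments in alpha, beta and gamma, stacked by the libraries that hold them. Segments of all 3 libraries make up 14 of 18 in alpha, 16 of 20 in beta and 11 of 21 in gamma, where 5 more are held by DTP and DTP + TSA and 5 by DTP + TSA alone. Segments were not built over the genome.

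Alpha carried a row of intervals over its first part. Its 14 segments held by all libraries lay at chr5:140153001-140172400, 140173401-140178600, 140180001-140184000, 140185801-140191400, 140200401-140204200, 140206601-140211200, 140212801-140217600, 140220401-140223800, 140227601-140230800, 140234601-140238600, 140239601-140244200, 140248001-140252200, 140253401-140258400 and 140260801-140265200. The first of them crosses the left border of the locus. Neighbouring summits in alpha were a median of 7000 bp apart in the parental library, 7056 bp in the DTP one and 6912 bp in the DTP + TSA one, and the median interval was 4000, 3200 and 3400 bp long. Within the row the distances ran from 5152 to 14528 bp among parental intervals, from 4736 to 14336 bp among DTP intervals and from 4496 to 15040 bp among those of DTP + TSA. In each library the widest lay across the stretch between 140191400 and 140200401, which no interval covered. In gamma the median distances were 8208, 8096 and 6608 bp. Beyond 140265200 the row ended in parental cells, and the rest of alpha held 1 parental interval, chr5:140331001-140335200, which overlapped 1 in DTP. DTP and DTP + TSA both held 3 more there, in the segments chr5:140276801-140279200, 140304801-140308000 and 140345201-140348200. These and the other segments absent from parental cells are named after their values were seen.

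The alpha row held the highest signal of the locus in every library. The signal is the authors' mean value over an interval, and since any scaling between libraries is not given in the sources used here, it is ranked only within a library. In parental cells the 5 highest were chr5:140227801-140230600 (mean signal 41.2), 140180001-140184000 (38.1), 140173401-140177600 (36.4), 140254801-140257400 (31.8) and 140220401-140223400 (30.7), which lay between the percentiles 97.4 and 98.3 of that library. In DTP they were chr5:140165801-140169000 (105), 140227801-140230400 (94.3), 140180201-140183600 (82.9), 140235401-140238600 (77.1) and 140173601-140178600 (69.6), between the percentiles 99.5 and 99.7. In DTP + TSA they were chr5:140165401-140169000 (124), 140227601-140230800 (123), 140180401-140183800 (120.2), 140173401-140177600 (113) and 140220401-140223400 (107), between the percentiles 99.6 and 99.7. All 15 lie in alpha, and 3 segments, the second, the third and the ninth of the row, supplied an interval to each of these lists.

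The order of the families by signal was the same in the 3 libraries. The median interval of alpha, of beta and of gamma had a mean signal of 27.4, 13.2 and 12.4 in parental cells, where the median of all intervals was 8.22. The values were 63.0, 32.6 and 26.2 in DTP, with 10.3 over all, and 77.1, 52.9 and 39.8 in DTP + TSA, with 11.1 over all. Alpha thus stood at 3.33, 6.10 and 6.92 times the median of its own library, beta at 1.61, 3.16 and 4.75 times, and gamma at 1.51, 2.53 and 3.57 times. The ratio of alpha to beta was 2.07 among parental intervals, 1.93 among DTP intervals and 1.46 among those of DTP + TSA. The lists differ in length, with 23842, 47866 and 53000 intervals, so these multiples are descriptions within each library and show no change between them.

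**Figure D4:**
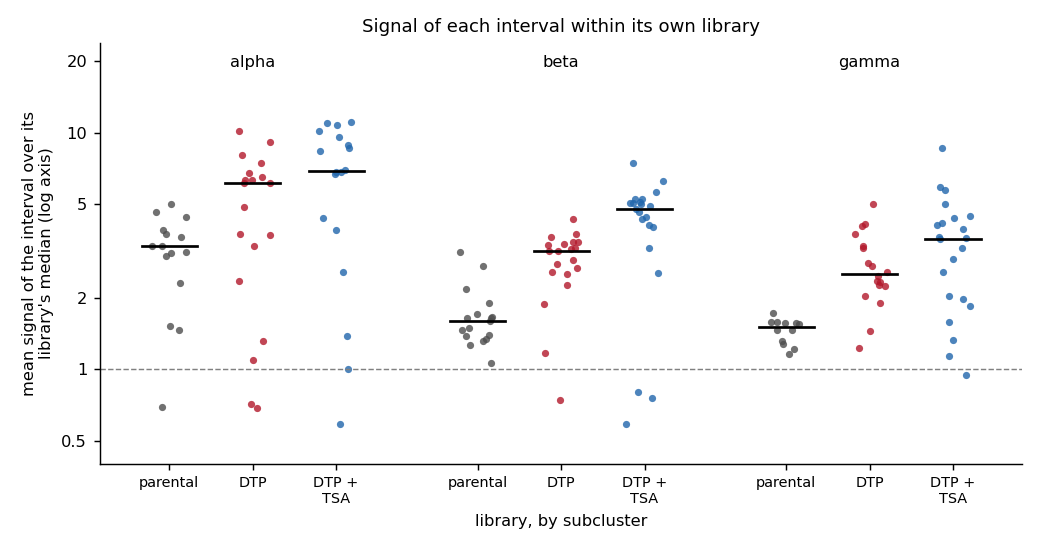
Mean signal of each interval divided by the median of its library, on a log axis, by family and library, with black lines at the median of each column and a dashed line at 1. Alpha medians lie at 3.33, 6.10 and 6.92, above those of beta and gamma in each library, and a few low intervals of alpha and beta and 1 of gamma lie under 1.

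Intervals at or above percentile 90 of their own library were counted by family. In parental cells these were 12 of 15 alpha intervals, 4 of 17 beta intervals and 0 of 12 gamma intervals, placed by summit. In DTP they were 15 of 19, 17 of 20 and 15 of 18. Those of DTP + TSA were 15 of 18, 18 of 21 and 15 of 22. The 12 parental gamma intervals lay between percentiles 65.8 and 89.2, so the highest was just under the cut. The lists differ in length, so these counts show no change between libraries. The DTP counts were close to one another, but the median signals of the families were not. Alpha over gamma was 2.41 among DTP intervals, against 2.20 among parental ones, and beta over gamma was 1.25 against 1.06. Alpha over beta was lower, at 1.93 against 2.07. The locus held 0.195%, 0.143% and 0.144% of the total interval length of its library and 0.203%, 0.258% and 0.356% of the total signal (mean signal times number of bins).

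Over the 38 segments with 1 interval in each library, the order of mean signal was alike between libraries, with a Spearman rho of 0.74 for parental cells and DTP, 0.86 for DTP and DTP + TSA and 0.86 for parental cells and DTP + TSA. Within alpha (13 segments) rho was 0.66, 0.83 and 0.92, and within beta (16 segments) 0.36, 0.50 and 0.69. Within gamma (8 segments) it was -0.14, 0.69 and 0.21. The segments share their libraries, so these values are given as a description.

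Beta carried 16 segments held by all libraries, each of a single interval in every library. They lay at chr5:140474001-140477600, 140479601-140483000, 140500801-140504200, 140513601-140517800, 140529401-140532800, 140533801-140538800, 140551401-140555400, 140556801-140560200, 140561001-140565200, 140566601-140570800, 140571401-140575600, 140578801-140583000, 140588201-140591200, 140592601-140599200, 140603001-140606600 and 140613801-140617400. The RefSeq table also lists 16 beta genes, but no segment was matched to a gene, and the segment count depends on placement by midpoint. The segment chr5:140619601-140658800, also held by all libraries, starts in beta but has its midpoint in the gap. The median beta interval was 3200 bp long in parental cells and DTP and 3400 bp in DTP + TSA. The highest parental signal in beta, 25.7, was in the interval of 1600 bp within chr5:140566601-140570800, which was 3400 bp long in both other libraries.

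The stretch from the end of beta to the start of gamma held the longest parental intervals of the locus. The longest was chr5:140620001-140658800 (38800 bp, mean signal 11.5), followed by chr5:140688601-140709000 (20400 bp, 11.0). The third, chr5:140153001-140172400 (19400 bp, 12.5), was at the left border of alpha. The 38800 bp of the first were covered to 71.1% by 7 intervals in DTP and to 62.4% by 5 in DTP + TSA. Those of the second were covered to 61.8% by 3 and by 2 intervals, and those of the third to 69.1% by 3 intervals in each library.

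Signal within the segment chr5:140619601-140658800 was uneven in the libraries that split it. Its first 2 intervals in DTP, chr5:140619601-140622800 and 140624801-140631000, had a mean signal of 32.6 and 28.8 (percentiles 97.2 and 96.1). The other 5 had 6.38 to 10.5. In DTP + TSA the first 2 had 69.5 and 58.6 (percentiles 99.1 and 98.5) and the other 3 had 8.00 to 8.55. The summit of the long parental interval lay at 140627200, and those of the second DTP and DTP + TSA intervals at 140627072 and 140627104. The parental interval chr5:140672401-140678600 (mean signal 5.46, percentile 7.37) had no counterpart in either library. The remaining segments of the gap were chr5:140680801-140687000, with 1 interval in each library, and chr5:140688201-140709000.

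The longest intervals of the other libraries were shorter. In DTP they were chr5:140749601-140758000 (8400 bp), 140650201-140658000 (7800 bp) and 140796201-140803600 (7400 bp). In DTP + TSA they were chr5:140688801-140699400 (10600 bp) and 140641201-140649400 (8200 bp), followed by 140739601-140747400 and 140749401-140757200, both of 7800 bp. For scale, in 19p12, a band rich in zinc-finger genes, 156 parental intervals covered 90.2%, 345 DTP intervals 55.6% and 335 DTP + TSA intervals 54.9%.

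**Figure D5:**
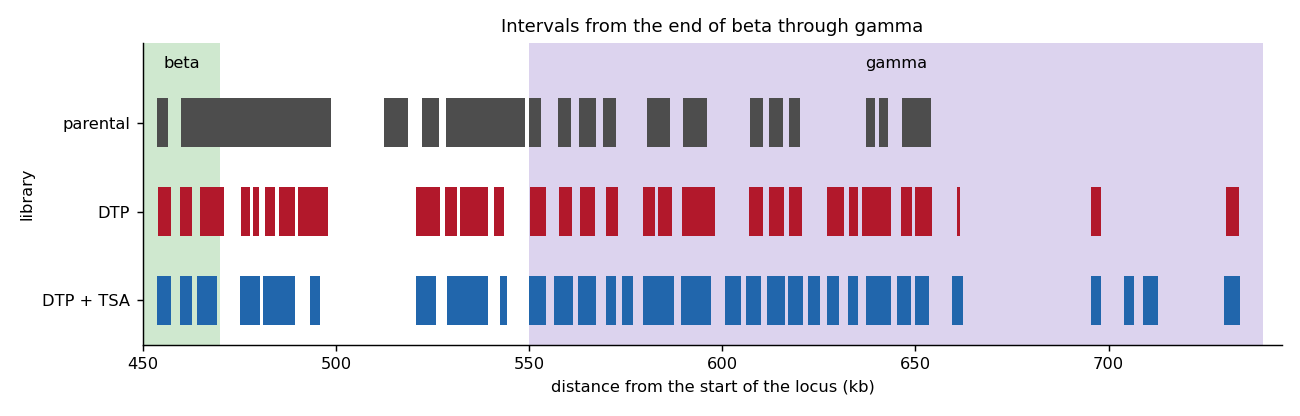
Intervals of the 3 libraries from the last 20 kb of beta to the end of gamma, in kb from the start of the locus, with beta and gamma shaded. Parental intervals of 38800 and 20400 bp before gamma lie over several shorter ones in DTP and DTP + TSA. Gamma holds 21 segments, 10 of them with no parental interval. By single intervals, not segments, 34.2% of DTP and 30.5% of DTP + TSA intervals in the genome were found in parental cells.

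Absence from parental cells was common in the genome, where 34.2% of DTP intervals and 30.5% of DTP + TSA intervals were found in them. Of the 21 gamma segments 10 were absent from parental cells, against 3 of 18 in alpha and 4 of 20 in beta. The genome shares are of single intervals, and no such share was computed for segments. The 11 held by all libraries lay at chr5:140710001-140714400, 140716401-140721400, 140722601-140727400, 140729201-140733000, 140739601-140747400, 140749401-140758000, 140766201-140770600, 140771601-140776200, 140777001-140780800, 140796201-140803600 and 140805201-140814200. Parental intervals covered 48.8 kb in them, DTP intervals 54.6 kb and DTP + TSA intervals 58.2 kb. The other 10 added 13.4 kb in DTP and 31.4 kb in DTP + TSA, and so made up the larger share of the gain over parental cells in both.

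Of those 10 segments, 5 were held by DTP and DTP + TSA, at chr5:140787201-140791400, 140792601-140795200, 140819401-140822200, 140855401-140858000 and 140890001-140894000. The other 5, held by DTP + TSA alone, were chr5:140734001-140736800, 140760801-140764800, 140782201-140785200, 140864001-140866600 and 140868801-140872800. In DTP the 5 had a mean signal between 15.0 and 26.8 (percentiles 78.7 to 95.3 of that library). In DTP + TSA the 10 had 10.6 to 55.6 (percentiles 45.3 to 98.3). The highest, 55.6, was chr5:140787201-140791400, whose neighbours on both sides were also absent from parental cells. Beyond 140814200 parental cells held no interval in the last part of gamma, where DTP held 3 and DTP + TSA 5.

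Summits and borders were compared where 1 interval matched 1. Between parental cells and DTP, 39 such pairs in the locus had summits a median of 160 bp apart, against 240 bp over 13342 pairs in the genome. Between DTP and DTP + TSA, 56 pairs were 64 bp apart, against 128 bp, and between parental cells and DTP + TSA 39 pairs were 160 bp apart, against 224 bp. Summits were within 200 bp for 22 of 39, 45 of 56 and 24 of 39 pairs (56.4%, 80.4% and 61.5%), against 45.6%, 61.0% and 46.8% in the genome. Starts differed by a median of 400 bp and ends by 200 bp between parental cells and DTP, against 600 bp each in the genome. Between parental cells and DTP + TSA both differed by 400 bp, against 600 bp. Between DTP and DTP + TSA starts were further apart in the locus than in the genome (300 against 200 bp) and ends equally far (200 bp in both). The DTP + TSA interval was longer than its DTP partner in 31 of 56 pairs and shorter in 18, whereas in the genome 38.0% were longer and 48.6% shorter.

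The place of the summit within its interval was measured from the left end, which is the upstream side for genes of the plus strand. As a fraction of the interval length, the median place in alpha, beta and gamma was 0.66, 0.72 and 0.77 in the parental library, against 0.52 over all its intervals. In the DTP library it was 0.53, 0.59 and 0.55, against 0.53, with alpha at the genome's value. In the DTP + TSA library it was 0.59, 0.67 and 0.63, against 0.54. In parental cells the summit was in the right part beyond the midpoint in 13 of 15 alpha, 14 of 17 beta and 12 of 12 gamma intervals, against 53.1% of all intervals. In DTP it was so in 14 of 19, 15 of 20 and 12 of 18, against 53.9%. In DTP + TSA it was so in 13 of 18, 20 of 21 and 14 of 22, against 55.3%. Neighbouring genes of these families are alike in sequence, so reads that fit more than 1 of them may be placed or dropped in ways the lists do not show.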

How the data were processed

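H3K9me3 ChIP-seq was done in 3 states of PC9 cells, 1 library each. Per the file headers, each deposited list holds the borders of every interval with its summit, the value there, the mean value and a bin count. Both values are the authors' signal in a unit no header states, and they served only within a list. The submitters' processing notes name BWA and SICER, as well as hg19 and dm3, without a version. Which input was used, the threshold, the handling of reads with several matches and any scaling were not given in the sources used here. Read depth cannot be had from the lists, and depth or threshold can alter how many intervals are called and how long they are.

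Starts lay on a grid of 200 bp in 100% of intervals, and coverage was computed on that grid. Coordinates are 1-based on hg19. Chromosome lengths came from GenomeInfoDb 1.38.1 and bands from circlize 0.4.16 (R 4.3.3), and Python 3.11.15 ran the rest (scipy 1.17.1, numpy 2.4.6, matplotlib 3.10.9, pandas 2.3.3). The functions were tested on built inputs, and 11 of 11 checks returned the known answer. The locus, the gene lists and the alternatives were chosen with earlier results of these data known. Segments of at least 5 kb in 1 library or held by all 3, and in each library the 5 intervals of highest mean value and the 3 longest, were named by rule. The alternatives for the gap between beta and gamma, the promoter search, the windows of subcluster length and the rank comparison of segments were added after the data were seen. No test was made, since each state had 1 library.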

Additional observations from a re-analysis of the deposited data

How the results depend on the processing

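The covered shares of the locus, of alpha, beta and gamma, and of the gap between beta and gamma were recomputed under 5 alternatives and each ratio to the flanks under 6. A value counted as moved when it left a 95% interval that takes the 200-bp steps as independent, which makes that interval too narrow. The alternatives for the gap were added after seeing the data. Of 113 recomputed values, 73 stayed within these limits, 28 moved and 12 changed sign. With the 23842 strongest intervals of each library, the locus differed by -4.27 points between DTP and parental cells and by -1.89 between DTP + TSA and parental cells. Alpha then differed by -2.08 points (DTP minus parental) and beta by -1.3 (DTP + TSA minus parental), and the ratio to the flanks was 15.8 in DTP and 14.8 in DTP + TSA. With intervals at or above the library median, the 2 locus differences were -2.86 and -0.24 points. Alpha then gave -0.33 (DTP minus parental) and 0.58 (DTP + TSA minus DTP), beta -1.3 (DTP + TSA minus parental), and the flank ratios 15.8 and 13.7.

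With intervals within 5 kb joined, the locus gave 1.22 points (DTP minus parental), beta -1.6 (DTP + TSA minus DTP) and -1.9 (DTP + TSA minus parental), gamma 17.5 and 28.3 in these last 2 comparisons, and the flank ratio was 8.94 in parental cells and 6.61 in DTP + TSA. With borders moved outward by 10 kb, alpha gave -0.69 (DTP minus parental), and beta -0.82 and gamma 16.1 (DTP + TSA minus parental). Flanks of 250 kb a side gave ratios of 3.50, 4.06 and 3.93, and flanks of 1 Mb gave 7.56 in DTP and 6.13 in DTP + TSA. A reciprocal overlap of at least 50% lowered the share of parental intervals found in DTP to 80.9% and in DTP + TSA to 83.0%. For DTP intervals it gave 83.3% in DTP + TSA and 57.6% in parental cells, and for DTP + TSA intervals 58.2% in parental cells. The share over all intervals was not computed at this overlap, so the locus and the genome cannot be compared by it. The gap gave -50.5 points (DTP minus parental) and -55.25 (DTP + TSA minus parental) with the strongest intervals, -42.75 and -47.5 with those at or above the median, and -16 and -23 with 10 kb left off each end. With intervals joined, DTP minus parental in the gap was -19.75. The cause of these shifts was not tested. Counts of gained and lost tiles stayed within 1.5 times under both other tile thresholds. Depth is unknown, so differences in it between libraries were not measured. No paired analysis was possible because each state had 1 library.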
